A study of Mus musculus with 6 samples.

Results

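The aminoacyl-tRNA synthetases join each amino acid to the transfer RNA that carries it to the ribosome. Their genes were followed in calf muscle of mice that overexpress integrin alpha7 and of wild type mice. Membership went by gene symbol, and the set was chosen with earlier results of these data known. Members had symbols of 1 capital letter followed by "ars", with or without a final 1 or 2. Eprs, Farsa, Farsb and the non-catalytic scaffolds Aimp1 and Aimp2 were included. The members made up 37 of the 12942 genes tested, and 75 of the 45037 probe sets on the array that were not controls. Each gene was represented by its brightest probe set over the 6 arrays. By the rule, a symbol ending in 2 marks the mitochondrial enzyme, which gave 16 mitochondrial and 19 cytosolic synthetase genes. Aimp2 also ends in 2 but belongs to a cytosolic complex, so the 2 scaffolds were kept apart from both classes. The aspartyl enzymes were not analysed here.

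Signal was measured on 6 Affymetrix Mouse430_2 arrays, 3 of each genotype. Every array carried RNA pooled from 6 animals, 18 per genotype. Both groups were females aged 5 weeks, not fasted, labelled as of SJ6/C57BL6 background, and each sample held gastrocnemius and soleus. The transgenic group overexpressed integrin alpha7, which binds laminin around muscle fibres, and its labels name neither the promoter nor the founder line. Titles of the wild type arrays also hold the word intronic, which is not explained there. Whole muscle was measured, so fewer cells of a type and less RNA per cell cannot be told apart in any value below.

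The genotype labels held in the overexpressed gene. Itga7 read 254.4, 308.2 and 313.5 on the wild type arrays and 2498.3, 2144.3 and 2071.9 on the transgenic ones. The whole comparison had 33 of 27022 probe sets with a limma adjusted p under 0.05, of which 27 were higher and 6 lower. Of 30 marker genes of muscle and of other cell types, 0 passed. The 6 markers of skeletal muscle were all bright, with summed signals of 105919 to 110561 in wild type and 96702.6 to 102206 in transgenic muscle. The 5 endothelial markers summed to 1130 to 1267 in wild type and 974 to 1088 in transgenic muscle, so that neither list overlapped between the genotypes. The 5 macrophage markers summed to 3207 to 3579 in wild type and 2902 to 3211 in transgenic muscle, and the fibroblast markers to 22009 to 23037 and 18447 to 22595. The measured adipocyte, lymphocyte and erythroid markers overlapped between the genotypes in their summed signal. Cd3e of T cells and Hba-a1 of red cells lay below the filter on dim probe sets. Tnnt3 or Acta1, both muscle markers, gave the highest signal of any probe set on 5 of the 6 arrays, so the muscle sum rests on values at the top of each array's range and was not read as muscle content. The part of these shifts in the values below was not tested.

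A synthetase first activates its amino acid with ATP and then transfers it to the tRNA. There are classes I and II, which differ in the fold of the catalytic domain. Animal cells carry separate nuclear genes for most cytosolic and mitochondrial enzymes, whereas Gars and Kars each encode enzymes of both compartments. In the cytosol, several synthetases assemble with scaffold proteins into the multisynthetase complex. Uncharged tRNA is read by the kinase Gcn2 (gene Eif2ak4), which phosphorylates eIF2 and raises translation of Atf4, a transcription factor known to act on many cytosolic synthetase genes. Skeletal muscle is a large protein store of the body, and charging sets the supply for its protein synthesis.

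No synthetase or scaffold gene was called as different between the genotypes. Of the 37 genes, 0 passed an adjusted p of 0.05 in limma, where 0.122% of all probe sets tested did, and the adjusted p ran from 0.303 to 0.997. At an unadjusted p under 0.05 in limma, 1 gene was higher (Vars2, tested only through its transgenic values) and 1 was lower (Qars). That is 2.70% of the members in each direction, against 3.93% of all genes for higher and 4.26% for lower ones. Differences are given as transgenic minus wild type of log2(signal + 16), a scale that understates changes of dim genes. The median over the members was 0.05, and -0.00 over all genes tested. By sign, 26 members had a positive and 11 a negative difference, 70.3% positive against 49.0% of all genes. With the arrays scaled to equal medians 33 members were positive, where 61.2% of all probe sets were, against 47.4% as deposited. Without transgenic replicate 3 the positive members numbered 19.

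The intervals were narrow for most members. The 95% interval of the difference had a median half-width of 0.23 over the members and 0.32 over all genes. For 30 of the 37 genes, 81.1%, the whole interval lay within 0.5 log2 units of no difference, and for 36 within 1. Over all genes tested, 57.4% lay within 0.5. The exception at 1 log2 unit was Vars2. The narrowest interval was that of Eprs, with a half-width of 0.15.

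**Figure D1:**
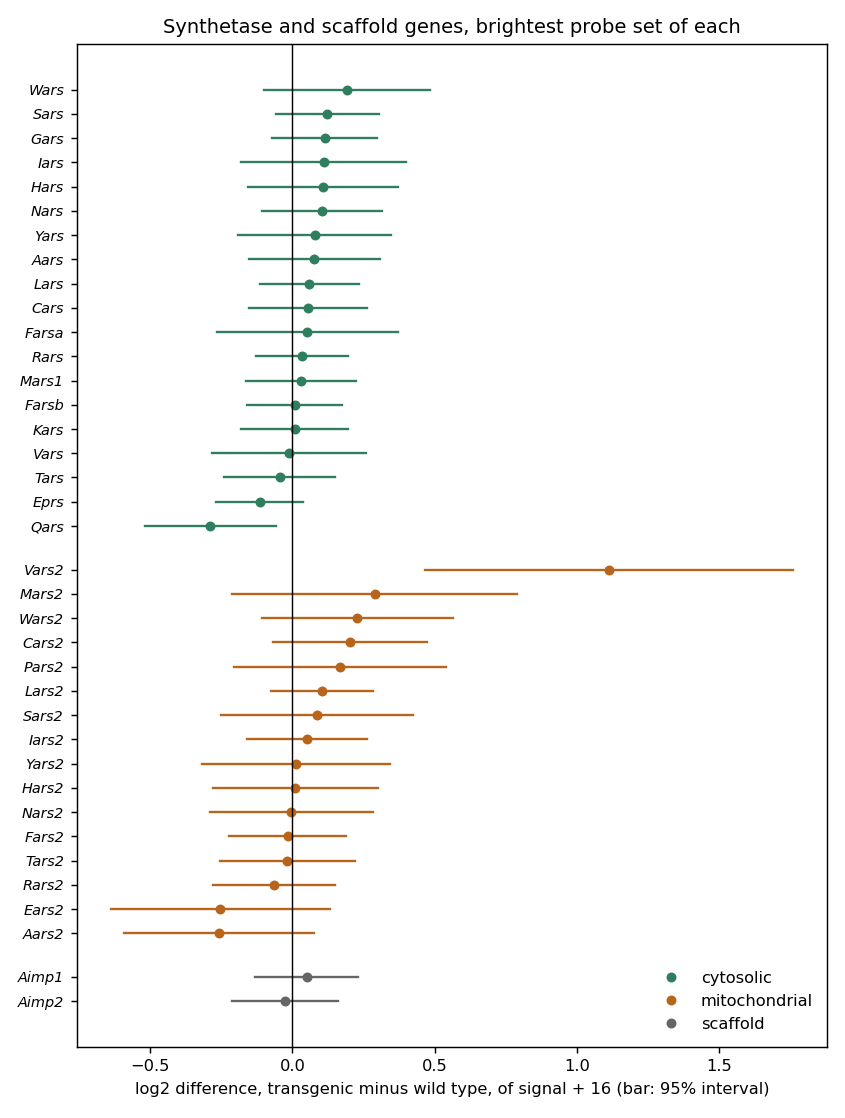
The horizontal axis gives the log2 difference, transgenic minus wild type, of signal + 16, with a 95% interval as a bar, for the brightest probe set of each of 37 genes grouped as cytosolic, mitochondrial and scaffold. All intervals but those of Vars2 (0.47 to 1.76) and Qars (-0.52 to -0.06) include 0, and those of the dimmer mitochondrial genes are wider.

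The cytosolic enzymes lay close together. Of the 19 genes 15 had positive and 4 negative differences, from -0.29 to 0.19, with a median of 0.05. Wars, the tryptophan enzyme, gave 302.7, 369.9 and 372.7 in wild type and 347.1, 488.4 and 373.0 in transgenic muscle, a difference of 0.19 (SE 0.13) with an adjusted p of 0.781 in limma. Its transgenic replicate 2 stood above the rest, and the other transgenic arrays lay within the wild type range or at its upper edge. The other kept probe sets of Wars gave -0.02, 0.12 and 0.09. Sars, the serine enzyme, gave 793.8, 787.3 and 851.2 against 872.5, 820.7 and 962.8, a difference of 0.12 (SE 0.08). Gars, the glycine enzyme, gave 582.3, 620.3 and 646.6 against 663.4, 627.5 and 714.1, a difference of 0.11 (SE 0.08). In both of these, 1 transgenic array lay within the wild type range.

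Asparaginyl synthetase, Nars, gave 1382.4, 1334.4 and 1390.9 in wild type and 1377.0, 1324.1 and 1750.4 in transgenic muscle. Its difference of 0.10 came with 1 high array, transgenic replicate 3, and the other 2 transgenic arrays lay below the wild type maximum. The isoleucine enzyme Iars gave 653.7 to 973.4 in wild type and 755.8 to 951.3 in transgenic muscle, so that the transgenic arrays lay inside the wild type range. Hars, for histidine, gave 0.11, Yars, for tyrosine, 0.08 and Cars, for cysteine, 0.05. The smallest differences were those of Kars (lysine) and Farsb (the beta chain of the phenylalanine enzyme), both 0.01, and Vars (valine), -0.01. Kars averaged 775 ± 57.6 in wild type and 779 ± 51.6 in transgenic muscle (SD, n = 3 each).

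Genes of the multisynthetase complex were followed through 7 synthetases and both scaffolds. The 7 synthetases had a median difference of 0.03, and the 12 cytosolic ones outside the complex 0.08. Eprs, a single protein that charges both glutamate and proline, read 1723.1, 1602.6 and 1629.7 in wild type and 1598.1, 1547.2 and 1427.1 in transgenic muscle. All transgenic arrays lay below all wild type arrays, but the gap between the nearest was 1602.6 against 1598.1. The difference was -0.12 (SE 0.07) with an adjusted p of 0.738 in limma. Its 2 other kept probe sets gave -0.13 and -0.29, the second with a single low array, 534.0 on transgenic replicate 3 against 954.5 or more on the other arrays. Of the remaining complex members, Lars (leucine) gave 0.06, Rars (arginine) 0.03 and Mars1 (methionine) 0.03. The scaffolds Aimp1 and Aimp2 gave 0.05 and -0.03. Aimp2 read 4936.0, 4285.3 and 4927.2 in wild type and 5136.1, 4706.8 and 4087.9 in transgenic muscle, with overlapping groups.

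Qars, the glutamine enzyme of the complex, gave the most negative difference among the 37 genes. Its brightest probe set read 890.3, 722.0 and 862.4 in wild type and 615.1, 641.6 and 759.5 in transgenic muscle. The groups overlapped, since transgenic replicate 3 lay above wild type replicate 2. The difference was -0.29 (SE 0.10), 0.818-fold, with limma p-values of 0.0181 before and 0.526 after adjustment. A further probe set gave 583.5, 589.7 and 641.4 in wild type and 647.5, 586.9 and 623.8 in transgenic muscle, a difference of 0.03 with a 95% interval of -0.15 to 0.21. The dimmest kept one gave -0.10. The probe sets of Qars thus differed in sign, with wide intervals on the dimmest, and the difference over the mean of the 3 was -0.12. On the brightest it was -0.34 in the first of 2 rounds of hybridisation and -0.18 in the second.

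The mitochondrial enzymes spread more widely. Of the 16 genes 10 had positive and 6 negative differences, from -0.26 to 1.11, with a median of 0.03. Their signals were 34.5 to 483 on average, and the median half-width of their intervals was 0.31, against 0.21 for the cytosolic enzymes, whose signals averaged 136 to 1588. Probe sets differ in efficiency, so these signals do not rank the genes by abundance.

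Vars2, the mitochondrial valine enzyme, had the highest difference of the 37 genes. It read 11.4, 24.2 and 10.9 in wild type and 34.4, 46.2 and 79.7 in transgenic muscle. Every transgenic array lay above every wild type array, and the transgenic arrays differed among themselves by more than the wild type ones. The difference was 1.11 (SE 0.30), 2.16-fold with a 95% interval of 1.38 to 3.39, with limma p-values of 0.00290 before and 0.303 after adjustment. The wild type mean of 15.5 lay under the signal of about 21.7 at which probe sets were kept, so this probe set was tested only through its transgenic values. The second probe set of Vars2 gave 32.4, 45.3 and 10 against 31.0, 41.2 and 30.2, a difference of 0.23 with an adjusted p of 0.904 in limma, and its groups overlapped. With an offset of 1 in place of 16 the difference was 1.73, with 64 it was 0.55, and over both probe sets it was 0.67. It was 0.76 in the first round of hybridisation, with 2 arrays of each genotype, and 1.83 in the second, with 1 of each. With the fluidics module as a random effect its adjusted p was 0.0379 in limma, and each module held a single genotype. In that fit the correlation within modules was -0.44, and 297 of all probe sets passed, against 33 without the module.

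A further 3 mitochondrial genes had transgenic arrays that all lay above the wild type ones, with small gaps. Cars2, the cysteine enzyme, read 128.5, 122.9 and 136.1 against 141.0, 150.5 and 161.7, a difference of 0.20 (SE 0.12). Wars2, the tryptophan enzyme, read 76.9, 67.4 and 79.3 against 101.4, 87.2 and 82.0, a difference of 0.23 (SE 0.15). Lars2, the leucine enzyme, read 481.8, 451.8 and 461.7 against 501.3, 504.7 and 496.7, a difference of 0.10 (SE 0.08). Further probe sets of these genes, with overlapping arrays, gave 0.03 for Cars2, 0.08 for Wars2 and -0.15 for Lars2.

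Ears2, the glutamate enzyme, read 76.0, 69.6 and 81.3 in wild type and 47.9, 68.5 and 67.6 in transgenic muscle. Here the transgenic arrays all lay lower, with transgenic replicate 1 furthest down, and the difference was -0.25 (SE 0.18). With Vars2, tested only through its transgenic values, this made 4 members higher and 2 lower without overlap, the other lower one being Eprs. These were 10.8% and 5.41% of the members, against 6.67% and 7.56% of all genes. All 6 had an adjusted p of 0.303 or more in limma. Aars2, the alanine enzyme, gave a like negative difference of -0.26 (SE 0.15), but its arrays overlapped, at 167.2, 126.3 and 149.5 against 105.0, 144.4 and 114.0.

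By their brightest probe sets, the other mitochondrial genes showed differences from -0.07 to 0.29 with overlapping arrays. Mars2, the methionine enzyme, was dim at 30.9 ± 4.26 against 41.9 ± 11.2 (SD, n = 3 each, transgenic second), and its interval ran from -0.21 to 0.79. Pars2 (proline) gave 0.17, Sars2 (serine) 0.09, Iars2 (isoleucine) 0.05, Yars2 (tyrosine) 0.01 and Hars2 (histidine) 0.01. Below 0 were Rars2 (arginine) at -0.07, Tars2 (threonine) at -0.02, Fars2 (phenylalanine) at -0.02 and Nars2 (asparagine) at -0.00. Dimmer kept probe sets, also with overlapping arrays, gave 0.21 for Hars2, -0.15 for Yars2, -0.13 for Tars2 and -0.05 for Fars2. That of Iars2 gave 0.70 from a dim and uneven signal, with an interval of -0.28 to 1.67.

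**Figure D2:**
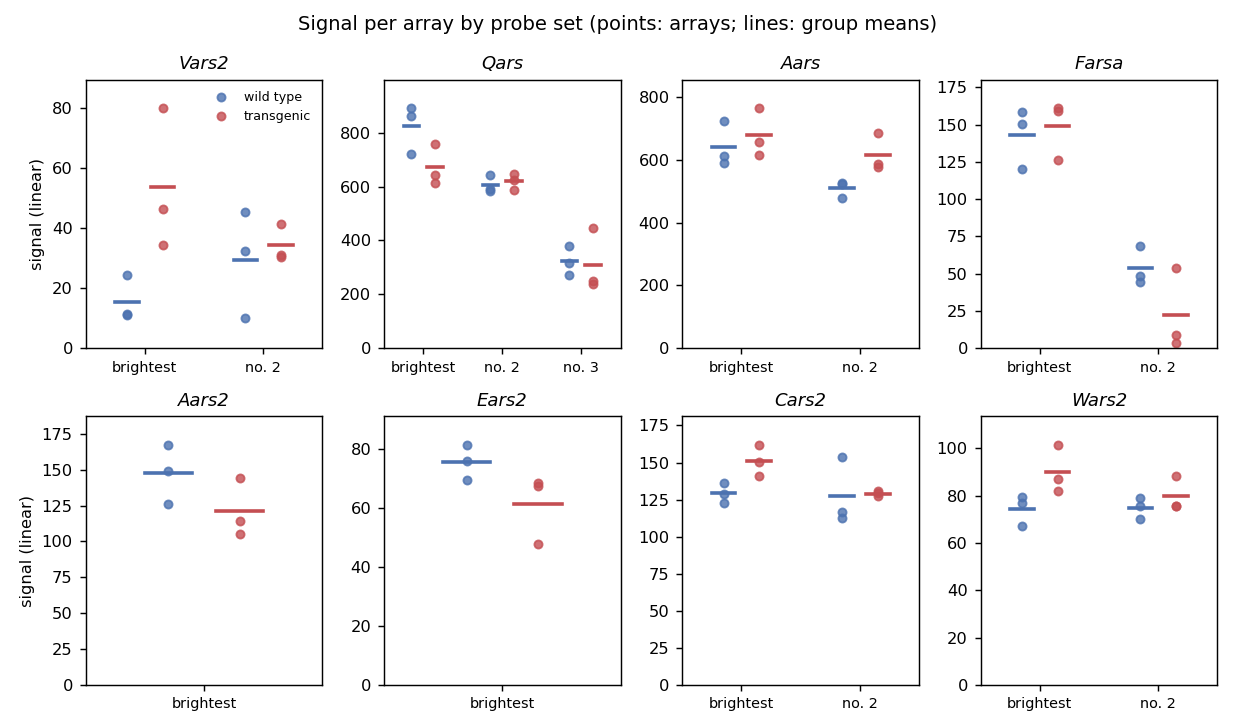
Linear signal on each array, wild type in blue and transgenic in red with a line at each group mean, is plotted for every kept probe set of 8 genes in order of brightness. The brightest Vars2 probe set separates the groups (10.9 to 24.2 against 34.4 to 79.7) and its second one does not. The brightest Qars probe set differs from its other probe sets, and Aars and Farsa differ more on the second probe set than on the first.

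Probe sets of 1 gene did not always read alike. Of the 75 probe sets of the members, 62 passed the filter, and 20 genes had more than 1 of these. The sign of the difference was shared by all kept probe sets in 14 of these genes and differed in 6, namely Aimp2, Farsa, Lars2, Qars, Wars and Yars2. Of the 25 kept probe sets that were not the brightest of their gene, 0 passed an adjusted p of 0.05 in limma and 2 had an unadjusted p under 0.05, 1 in each direction. Over all 27022 probe sets, 3.51% were higher and 4.34% lower at that p, so these 2, 1 of 25 in each direction, lie near the background. The first belonged to Aars, the cytosolic alanine enzyme, and read 527.7, 477.6 and 523.5 in wild type and 586.2, 577.1 and 686.8 in transgenic muscle. These groups did not overlap, and the difference was 0.26 (SE 0.09) with an adjusted p of 0.515 in limma. The brightest Aars probe set gave 591.4, 611.5 and 725.6 against 657.1, 615.1 and 764.1, which overlapped, and a difference of 0.08. The second belonged to Farsa, the alpha chain of the phenylalanine enzyme, and was dim and uneven at 48.1, 44.4 and 68.4 against 3.5, 53.7 and 9.0. The brightest Farsa probe set gave a difference of 0.05. The dimmer probe set of Iars read 719.0, 727.2 and 712.0 against 779.8, 778.5 and 784.3, without overlap, a difference of 0.12 beside 0.11 on the brightest. The 2 probe sets gave, for Nars, 0.10 and 0.13, and for Sars 0.12 and 0.09.

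The median differences of cytosolic and mitochondrial synthetases lay close together, and their order depended on the arrays. The cytosolic median exceeded the mitochondrial one by 0.02. Taken on each array from the genes' deviations from their group means, this gap between the classes had an SD of 0.04 between arrays of a group. Leaving out wild type replicate 1 gave -0.03, and leaving out transgenic replicate 2 gave -0.05. In the first round of hybridisation the cytosolic median exceeded the mitochondrial one by 0.11. In the second round the order was reversed, at -0.12. The mean log2(signal + 16) over the cytosolic genes was 9.13 ± 0.05 in wild type and 9.16 ± 0.04 in transgenic muscle (SD, n = 3 each). For the mitochondrial genes it was 7.26 ± 0.05 and 7.36 ± 0.07 (SD, n = 3). Its highest array was transgenic replicate 3, at 7.45. By these means the order of the classes was the opposite of that by medians. The mitochondrial mean includes Vars2, with a difference of 1.11 and its highest signal, 79.7, on transgenic replicate 3. A mean without Vars2 was not taken, so the reversal cannot be read as a trait of the class. By medians, leaving out Vars2 gave a cytosolic minus mitochondrial gap of 0.04. The cytosolic mean exceeded the mitochondrial one by 1.87 ± 0.06 in wild type and by 1.80 ± 0.04 in transgenic muscle (SD, n = 3 each), a change of -0.07 that was not tested.

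Matched by amino acid, 16 amino acids had both forms measured, in 17 pairs because the cytosolic phenylalanine enzyme has 2 chains. Both members of a pair had the same sign in 10 pairs and opposite signs in 7. The cytosolic difference was the higher in 10 pairs and the mitochondrial one in 7, and the median of cytosolic minus mitochondrial was 0.04. The widest pair was valine, where Vars gave 144.7, 134.1 and 131.3 in wild type and 134.0, 127.2 and 145.1 in transgenic muscle, beside the values of Vars2 above. Next were alanine, with Aars at 0.08 and Aars2 at -0.26, and proline, with Eprs at -0.12 and Pars2 at 0.17. By their brightest probe sets the tryptophan pair lay close together, at 0.19 for Wars and 0.23 for Wars2. So did the threonine pair, at -0.05 for Tars and -0.02 for Tars2.

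**Figure D3:**
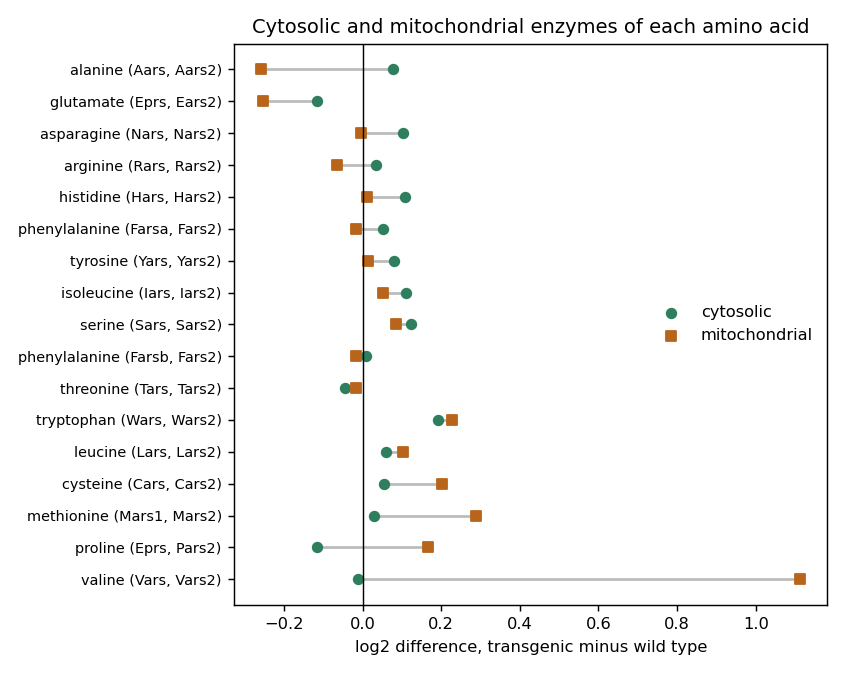
For each amino acid, circles give the log2 difference (transgenic minus wild type) of the cytosolic enzyme and squares that of the mitochondrial one, joined by a line and ordered by the gap. Squares lie to the right in 7 pairs and circles in 10, and only the valine pair spans more than 1 log2 unit.

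By catalytic class, the 18 genes of class I had a median difference of 0.06 and the 16 of class II 0.03, with Eprs holding a domain of each. Vars2 and Qars, the members with an unadjusted p under 0.05 in limma, are both of class I.

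The promoters of some cytosolic members carry letters known as a binding sequence of Atf4 with C/EBP factors. The C/EBP-ATF response element was searched on both strands as TTGCATCA (reverse TGATGCAA) and, more loosely, as TTNCATCA (reverse TGATGNAA), which includes every match of the first form. The window ran from 250 bases before to 50 after the annotated start, in RefSeq promoters of build GRCm38.p6, which held 28 of the 37 members. The stricter form was found in 4 of 12 cytosolic members, 0 of 14 mitochondrial ones and 0 of the 2 scaffolds, and in 1.03% of all 27025 genes of the table. The looser form was found in 5 of the 12 cytosolic members, 0 of the 14 mitochondrial ones and 4.51% of all genes. For each of these 5 genes 1 match is shown, with up to 40 bases on each side and none beyond 30 bases after the start. They are shown as matches among the members to the element of the factor that answers uncharged tRNA. The capitals mark the match.
Aars: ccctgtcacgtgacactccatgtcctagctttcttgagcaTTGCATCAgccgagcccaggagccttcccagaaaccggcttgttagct
Iars: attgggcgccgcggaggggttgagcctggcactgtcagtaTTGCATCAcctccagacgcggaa
Tars: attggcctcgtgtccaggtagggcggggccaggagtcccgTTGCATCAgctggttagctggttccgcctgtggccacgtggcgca
Yars: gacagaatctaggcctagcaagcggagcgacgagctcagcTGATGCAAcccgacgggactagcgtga
Gars: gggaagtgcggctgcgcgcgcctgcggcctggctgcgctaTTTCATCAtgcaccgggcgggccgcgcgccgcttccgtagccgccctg

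The windows lie at chr8:111033690-111033777 on the plus strand for Aars, chr13:49682097-49682159 on the plus strand for Iars and chr15:11399629-11399713 on the minus strand for Tars. They lie at chr4:129189866-129189932 on the plus strand for Yars and chr6:55037931-55038018 on the plus strand for Gars. The match begins 112 bases before the start in Aars, 30 before in Gars and 15 before in Tars, and 7 bases after it in Iars and 3 after it in Yars. Aars holds a second, looser match 9 bases after its start. A match is a description of the letters, and binding was not measured here. The 5 genes showed no difference that passed. Their brightest probe sets gave 0.08 for Aars, 0.11 for Gars, 0.11 for Iars, -0.05 for Tars and 0.08 for Yars. Tars, the threonine enzyme, read 466.5, 449.6 and 464.1 in wild type and 409.9, 474.9 and 453.2 in transgenic muscle, and Yars 366.9, 292.1 and 310.4 against 310.4, 320.1 and 397.4, both overlapping.

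Genes of the same amino acid response showed larger single differences than the cytosolic synthetases, none of which passed. Their intervals were also wider, with a median half-width of 0.29 against 0.21 for the cytosolic synthetases. Over all genes tested the differences ran from -1.16 to 2.87. Of 30 listed genes 26 were tested, 0 passed an adjusted p of 0.05 in limma, and 17 had positive and 9 negative differences, with a median of 0.08. Psat1, an enzyme of serine synthesis, read 132.1, 128.5 and 139.0 in wild type and 198.6, 208.9 and 231.0 in transgenic muscle. The groups were well apart, at 1.53-fold, with a difference of 0.62 (SE 0.12) and an adjusted p of 0.0995 in limma. A dimmer probe set of Psat1 gave 0.29 with overlapping arrays. Mthfd2, a mitochondrial enzyme of one-carbon metabolism, read 89.6, 84.2 and 67.1 against 124.2, 120.0 and 136.8, a difference of 0.58 with an adjusted p of 0.290 in limma, and 0.18 on its second probe set. Vldlr, a lipoprotein receptor, gave -0.38 with overlapping arrays, and its other kept probe sets gave -0.02, -0.32, -0.00, 0.12 and -0.05. The transcription factor Cebpb gave 0.24, also with overlap. A dimmer Cebpb probe set gave 0.58 without overlap and an adjusted p of 0.268 in limma. Atf4 itself gave 0.04 with a 95% interval of -0.12 to 0.20, and Asns, the asparagine synthetase that responds to amino acid shortage, 0.16. Both were named after their values were seen, beside 9 negative differences among the 26 genes tested. Translation of Atf4 was not measured.

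Of the 16 listed genes of eIF2 and its regulators 15 were tested and 0 passed an adjusted p of 0.05 in limma, with a median of 0.00. Eif2ak1, the haem-regulated eIF2 kinase, read 339.0, 270.3 and 357.3 against 387.1, 421.7 and 493.5, a difference of 0.41 with an adjusted p of 0.389 in limma, and its other kept probe sets gave 0.16 and -0.07. Gcn1, the partner of Gcn2, gave 0.33 on its brightest and 0.04 on its other kept probe set, and Ppp1r15a, a phosphatase subunit for eIF2, 0.31. Eif2ak4 was dim, at 32.2, 31.6 and 32.7 against 37.1, 51.7 and 37.5, and gave 0.26. Eif2s2, the beta subunit of eIF2, gave -0.09 on its brightest probe set and -0.49 to 0.23 on the others, so its probe sets differed in sign. On the one at -0.36 the adjusted p was 0.189 in limma, the lowest of them.

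Of 14 listed genes of translation elongation factors and their partners 13 were tested, and 0 passed an adjusted p of 0.05 in limma. Their median was -0.01, in a range of -0.44 to 0.16. Eef1e1, the third scaffold of the multisynthetase complex, also called Aimp3, read 579.1, 597.7 and 588.0 in wild type and 621.2, 657.8 and 704.6 in transgenic muscle. Its transgenic arrays all lay above the wild type ones, with a difference of 0.16 (SE 0.08) and an adjusted p of 0.677 in limma. Eif5a2 gave -0.44 from a dim signal, Gfm1, a mitochondrial elongation factor, -0.11 on its brightest and 0.04 on its other kept probe set, and Eef1b2 0.06. Of 14 listed genes for other steps of charging 12 were tested and 0 passed, with a median of 0.01. Gatb, a subunit of the mitochondrial enzyme that makes glutaminyl-tRNA by amidation, gave -0.41 with overlapping arrays and 0.14 on its second probe set. Trmu, a mitochondrial tRNA-modifying enzyme, gave -0.22, Dtd1, a D-aminoacyl-tRNA deacylase, 0.21 and Tarsl2, a second cytosolic threonine enzyme outside the rule, -0.11.

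**Figure D4:**
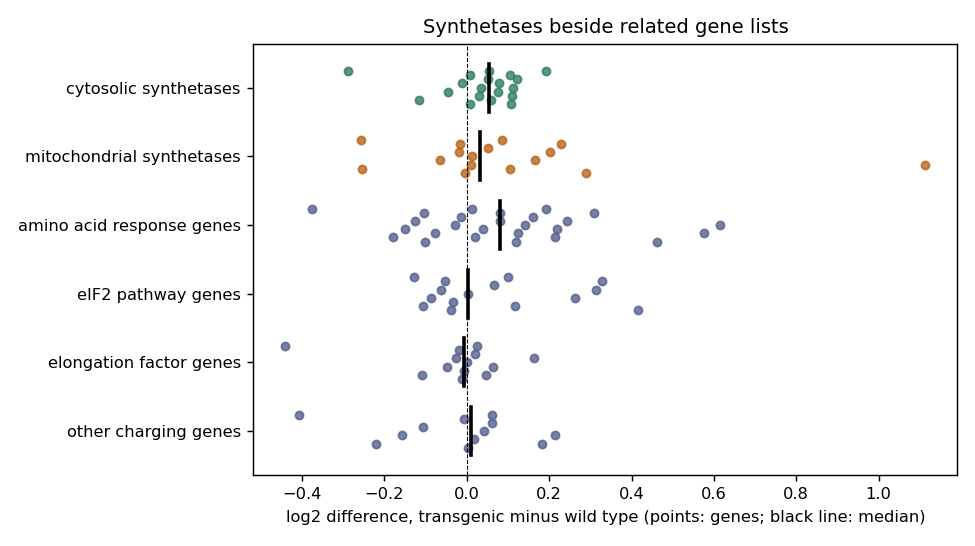
Each point is the log2 difference (transgenic minus wild type) of 1 gene by its brightest kept probe set, in rows for the cytosolic and mitochondrial synthetases and 4 related gene lists, with the median of each as a black line. All medians lie between -0.01 and 0.08, the cytosolic synthetases span -0.29 to 0.19, and Vars2 at 1.11 is the point furthest to the right.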

How the data were processed

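RNA of calf muscle was hybridised to 6 arrays, 3 per genotype. The deposited table holds linear intensity values, and the submitters' processing notes name GCOS 1.1.1. No source used here gives the summary algorithm. On every array the deposited intensity had a mean of 149.9 after trimming 2% at each end, so a change common to most genes would not show. The deposited run files hold no expression values. They name 4 fluidics modules and give times of hybridisation, but no rounds. A gap of over 30 minutes between these times was taken to start a new round, which gave 2 rounds. Rounds held both genotypes, and a module held only 1.

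Of 45101 rows, 64 controls were left out. Values were analysed as log2(signal + 16), and 27022 probe sets with a mean above the 40th percentile were kept. limma 3.58.1 in R 4.3.3 was fitted to all of these, with an intensity trend and no covariates, two-sided, with Benjamini-Hochberg adjustment and a threshold of 0.05. The fit was also run on simulated data with independent noise on each array. The simulation held no effect of round or module, so it cannot speak to these. Background shares over genes used 1 probe set, the brightest kept, for each of 12942 genes. Symbols came from the platform annotation, of which 34945 probe sets had 1 symbol, 932 several and 9160 none. The related lists were matched through a RefSeq table of GRCm38.p6, in which 34741 probe sets matched. The text names every member, and up to 4 genes with the smallest p in each related list. Atf4, Asns and Eif2ak4 were named in addition, after their values were seen. Pools are separate samples per the labels, and p-values measure the spread between pools. The members and lists were chosen with earlier results of these data known. Alternatives covered offset, scaling, filter, variance model, array weights, blocks, probe set choice and each left-out array. The number of arrays limits the precision.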

Additional observations from a re-analysis of the deposited data

How the results depend on the processing

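Over 19 alternatives, 0 synthetase genes passed an adjusted p of 0.05 in limma except when fluidics module entered as a random block. There 1 passed, Vars2, with an adjusted p of 0.0379, along with 2 amino acid response genes, Psat1 and Mthfd2, at 0.0114 and 0.0375. Over all alternatives the adjusted p ran from 0.0379 to 0.607 for Vars2 (not tested with the filter at the 60th percentile) and from 0.0114 to 0.378 for Psat1. Each module held 1 genotype and the fitted correlation within modules was -0.44. In that setting 297 probe sets passed in all. The count over all probe sets was 33 as reported, 51 with equal array medians, 17 with no filter, 1 without the intensity trend, 19 with kept probe sets averaged by gene, and 18 to 39 when 1 array was left out (18 and 19 when wild type replicate 2 or 1 was dropped).

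Members with an unadjusted p under 0.05 numbered 2. They were 1 with equal array medians, with the filter at the 60th percentile, without the intensity trend and with kept probe sets averaged by gene, 4 with the module block, and 1 to 2 when 1 array was left out (1 without wild type replicate 1 or 3 or transgenic replicate 1). The share of all genes at that p was not taken under these settings, so these counts were not read as a change of the members. With the module block, probe sets passing the adjusted threshold also rose, from 33 to 297. Members without overlap numbered 6. They were 2 with kept probe sets averaged by gene, where 14.3% of all genes did not overlap. They were 15 in the first hybridisation round alone, 40.5% of the members against 39.1% of all genes, and 8 to 10 when 1 array was left out (10 without wild type replicate 1 or 3 or transgenic replicate 2), 21.6% to 27.0% against 23.9% to 25.6%. The cytosolic minus mitochondrial median was -0.048 to 0.044 when 1 array was left out, 0.11 in the first round and -0.12 in the second, a restriction chosen after seeing the data.

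Positive differences numbered 19 to 29 of the 37 members when 1 array was left out, the fewest without transgenic replicate 3, and 33 with equal array medians, where 61.2% of all probe sets were positive. Over the alternatives 15 members kept the sign of their difference and 22 changed it in 1 or more. Same-numbered arrays of the genotypes had correlations of 0.00, 0.06 and 0.05 in their deviations, against -0.08 to 0.02 for different-numbered ones. All were small, and the numbers were not taken as pairs. With the replicate block 36 probe sets and 0 members passed.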
